A study of Homo sapiens with 24 samples.

Results

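The expression of 10 genes of the YAP/TEAD pathway was examined in RNA-seq data from human osteosarcoma cells: the coactivators YAP1 and WWTR1 (TAZ), the transcription factors TEAD1 and TEAD4, the transcriptional targets CTGF, CYR61 and ANKRD1, and the pathway's inhibitors AMOTL1, AMOTL2 and LATS2. The members were taken by symbol, and each had 1 row among the 57820 genes of the deposited count tables. There were 24 libraries, 3 biological replicates in each of 8 groups. By the cell line label, U2OS cells and the U2OS derivative AID-DIvA, in which DNA double-strand breaks can be induced at defined sites, were wild-type (WT) or knockout for ID3 (ID3-KO, here KO). ID3 is an inhibitor of DNA binding by basic helix-loop-helix transcription factors, and mocetinostat inhibits class I histone deacetylases (HDAC). AID-DIvA cells were untreated, or treated with mocetinostat for a day and then kept for a day in medium without it (after recovery). U2OS cells were untreated, or treated for a day and collected (before recovery), a stage taken from the methods. The dose, and whether the KO cells came from 1 clone, are not given in the sources used here. The library names of the U2OS samples also carry the name DivA, so that whether they are another line than AID-DIvA or the same one is not settled by the labels. The 2 sets are called AID-DIvA and U2OS after the cell line label. Stage and cell line label coincide, and their parts in any difference cannot be told apart. For AID-DIvA the groups followed the sample titles, since the treatment field of the labels contradicts them.

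YAP1 and WWTR1 lack a DNA-binding domain and act on genes through TEAD factors, which recognise a short motif in enhancers and promoters. The Hippo kinases, with LATS2 as a terminal member, phosphorylate YAP1 and WWTR1 and keep them in the cytoplasm, and the angiomotin family, to which AMOTL1 and AMOTL2 belong, binds and sequesters them. CTGF and CYR61 encode secreted matricellular proteins of the CCN family, and ANKRD1 encodes a nuclear and sarcomeric ankyrin repeat protein. These targets are used as readouts of YAP/TEAD activity, and AMOTL2 and LATS2 are themselves targets that feed back on the pathway. RNA levels do not show the phosphorylation or location of YAP1 and WWTR1, which were not measured here.

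The promoters of CTGF, ANKRD1 and AMOTL2 are shown because they carried the TEAD motif GGAATG, searched on both strands, and because these genes did not move together. The 250 bases before the RefSeq start site (build GRCh38.p14) are given 5′ to 3′ in the direction of the gene. Capitals mark GGAATG, its reverse complement CATTCC and TGANTCA, in which N is any base. TGANTCA is looser than the AP-1 motif, which has C or G at its centre. RefSeq windows were found for 7 of the 10 members, and none for CYR61, TEAD1 and TEAD4. The windows lay on the minus strand at chr6:131951373-131951622 for CTGF, chr10:90921088-90921337 for ANKRD1 and chr3:134374448-134374697 for the AMOTL2 start that had a match.
CTGF: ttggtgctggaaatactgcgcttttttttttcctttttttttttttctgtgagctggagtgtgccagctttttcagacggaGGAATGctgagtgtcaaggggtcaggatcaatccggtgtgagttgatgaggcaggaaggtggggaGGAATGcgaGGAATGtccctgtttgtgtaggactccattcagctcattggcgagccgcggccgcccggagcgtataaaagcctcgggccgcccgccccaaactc
ANKRD1: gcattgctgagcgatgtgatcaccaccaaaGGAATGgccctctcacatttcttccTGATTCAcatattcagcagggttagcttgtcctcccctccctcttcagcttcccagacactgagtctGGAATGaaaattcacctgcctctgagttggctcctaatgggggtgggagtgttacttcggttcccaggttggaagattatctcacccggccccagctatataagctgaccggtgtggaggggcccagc
AMOTL2: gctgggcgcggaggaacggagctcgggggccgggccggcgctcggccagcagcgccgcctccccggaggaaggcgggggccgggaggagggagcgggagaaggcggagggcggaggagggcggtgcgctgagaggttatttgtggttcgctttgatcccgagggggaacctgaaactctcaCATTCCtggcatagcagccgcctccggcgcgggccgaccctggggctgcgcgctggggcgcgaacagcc

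The CTGF window held 3 matches to GGAATG, beginning 169, 104 and 95 bases before the start site. The ANKRD1 window held 2, at 220 and 128 bases, and 1 match to TGANTCA at 195 bases. That match has T at its centre and is not the AP-1 motif itself. The AMOTL2 window held 1 match to GGAATG at 69 bases. YAP1 also had 1 match, 162 bases before its start, while the windows of WWTR1, AMOTL1 and LATS2 and the other start of AMOTL2 had none. WWTR1 and AMOTL2 had 2 windows each, and thus 4 of the 9 windows of the 7 genes held the TEAD motif, against 11.9% of 35116 RefSeq windows of the same length. For TGANTCA the figures were 1 of 9 and 6.57%. A match is a description of the letters, and no binding was measured.

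The libraries held 37878751 to 76906266 counts in AID-DIvA and 46285533 to 70692114 in U2OS. Levels are given as CPM, counts scaled to a common library total, after TMM normalization. The targeted gene, ID3, was lower in KO than in WT cells in each of the 4 states, but its transcript was still counted: group means were 30.6 to 119 CPM. Of the mesenchymal and osteoblast markers, VIM, COL1A1 and SPARC had group means of at least 434 CPM, RUNX2 had 12.5 to 43.1 CPM, ALPL 0.680 to 6.03 CPM, and COL1A2, SP7, IBSP and BGLAP at most 1.24 CPM. The blood and endothelial markers PTPRC, CD3E and CDH5 stayed below 1 CPM in every library, and PECAM1 was not analysed here. The epithelial markers CDH1 and EPCAM had group means of up to 1.78 and 10.1 CPM, and EPCAM went from 5.71 to 8.97 CPM in WT and from 5.86 to 10.1 CPM in KO U2OS cells with treatment. The part of other cell types in the results was not tested. One library stood apart: U2OS WT untreated replicate 1 differed from replicates 2 and 3 with a chi-square of 103 and 91.1 per gene, against at most 27.3 for any other pair. Test results of the members that rest on it are given with and without it, and those of the other lists where calls or counts are given. Levels, medians and the values of genes around the members include it unless stated. Bulk RNA does not separate a change in all cells from a change in the share of cells.

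Per kilobase of exonic length, which allows comparison between genes, the targets were the most abundant members. In untreated U2OS WT cells CYR61 stood at 202 ± 14.7 CPM per kb (SD, n = 3), CTGF at 134 ± 2.09 and ANKRD1 at 96.7 ± 8.70. The TEAD genes and AMOTL2 formed the middle of the order, with TEAD4 at 30.3 ± 0.778, AMOTL2 at 25.5 ± 1.98 and TEAD1 at 13.3 ± 3.74 CPM per kb. LATS2 (6.31 ± 0.647), AMOTL1 (6.14 ± 1.35), YAP1 (4.13 ± 1.03) and WWTR1 (3.87 ± 0.257) were lowest, and the libraries of neighbours among these 4 overlapped. In untreated AID-DIvA KO cells YAP1 moved up within this order, to 13.7 ± 0.797 CPM per kb, above AMOTL1 at 11.9 ± 0.137 and LATS2 at 9.54 ± 0.229. WWTR1 was at 2.80 ± 0.256 CPM per kb in that group. In untreated U2OS KO cells YAP1 was at 10.7 ± 0.141 CPM per kb, above LATS2 at 7.85 ± 0.325 but below AMOTL1 at 11.3 ± 0.205.

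**Figure D1:**
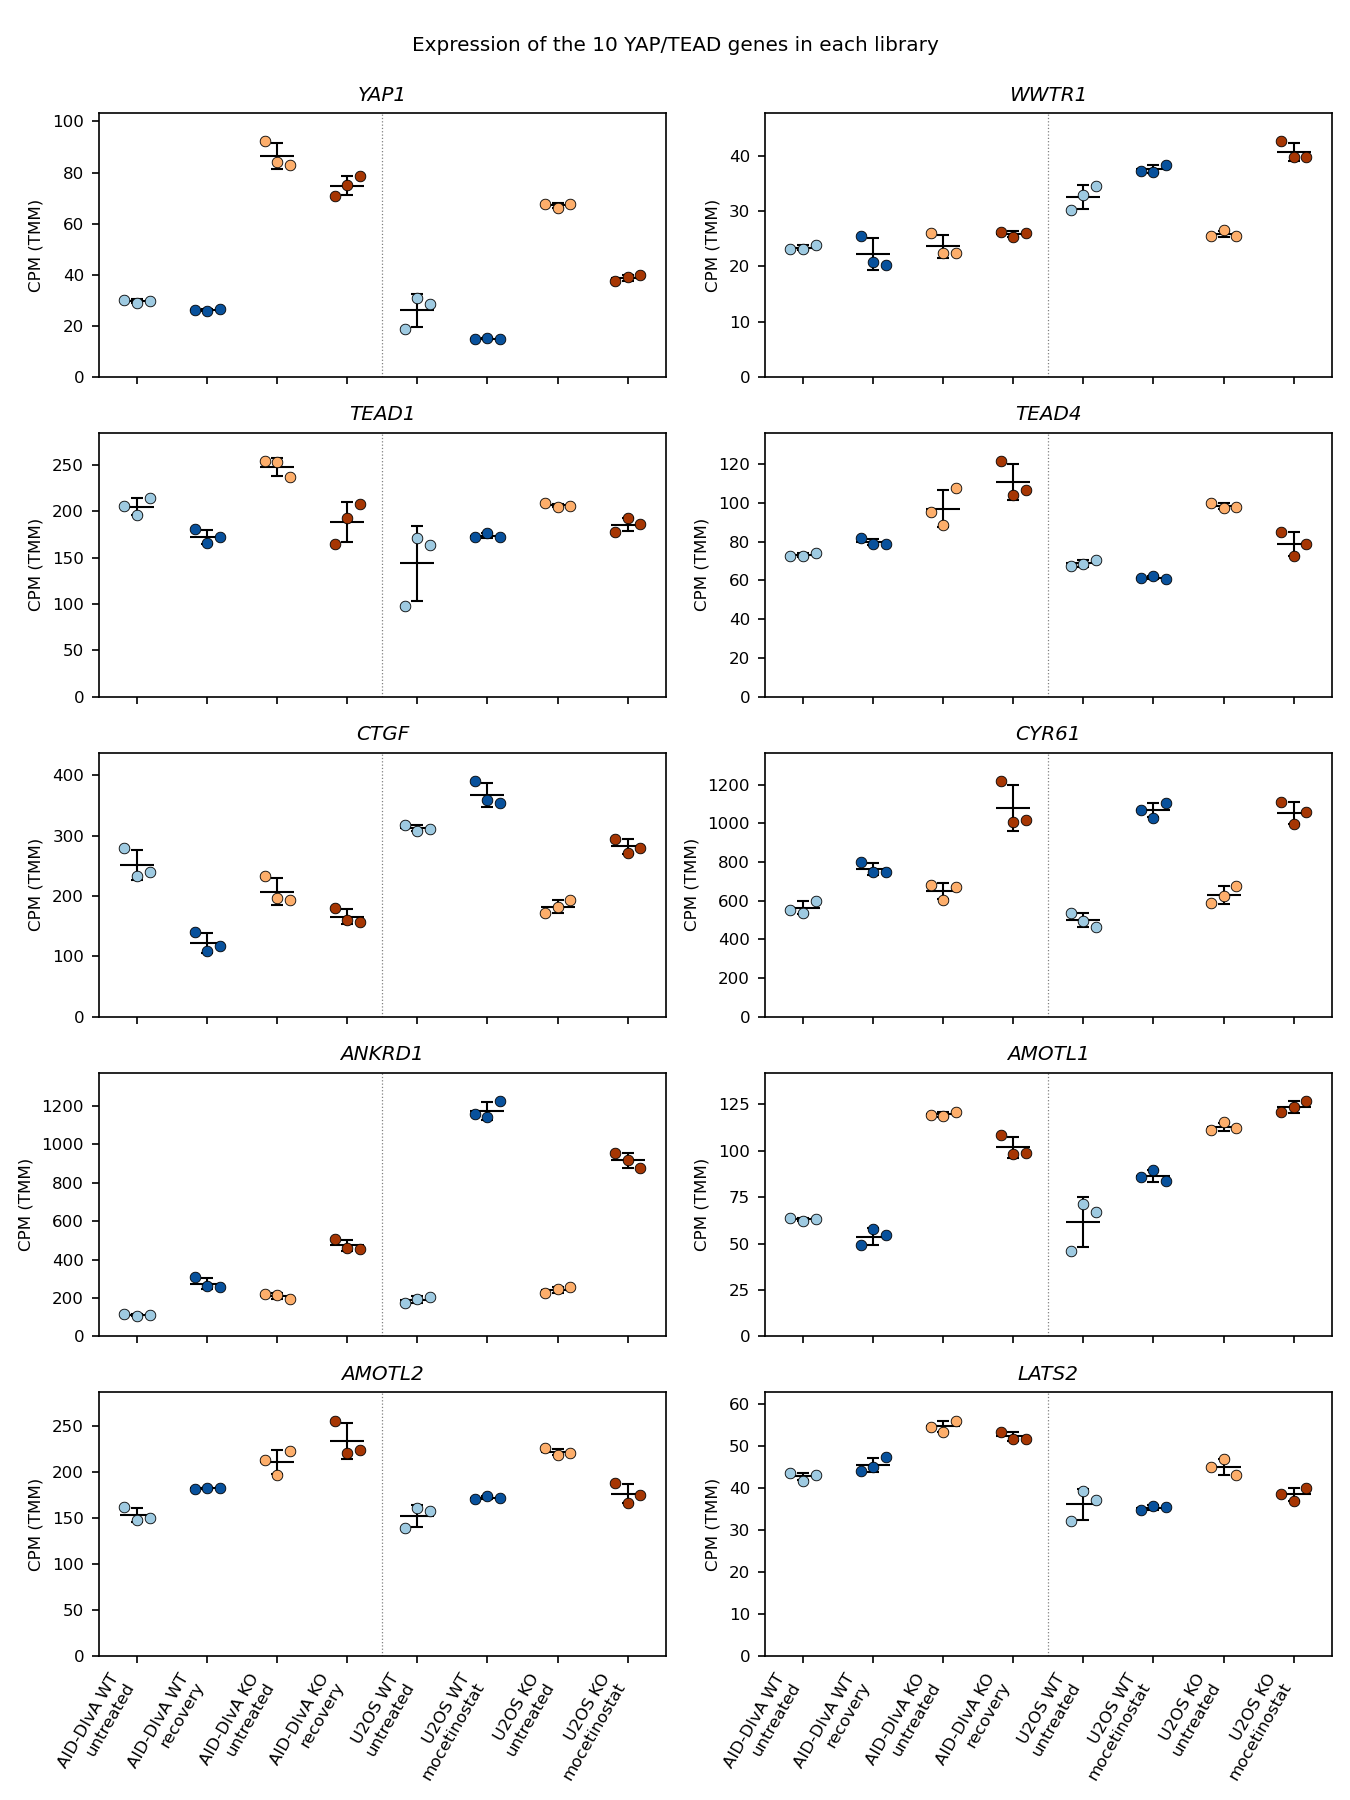
Level of each of the 10 genes (y axis, CPM after TMM scaling, each panel from 0) in the 24 libraries (x axis, 8 groups). Points are libraries and the bars are the mean ± SD of 3 libraries. ANKRD1 lies between 877 and 1227 CPM in the 6 treated U2OS libraries and at 255 CPM or less in the untreated ones, and YAP1 is higher in KO than in WT libraries of the same treatment.

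To ask how the targets responded to HDAC inhibition, treated cells were compared with untreated cells of the same genotype. ANKRD1 increased in all 4 comparisons and CYR61 did so too, whereas CTGF increased in U2OS cells collected before recovery and decreased in AID-DIvA cells after it. Adjusted p-values here and in what follows are from edgeR's quasi-likelihood test over all genes tested.

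ANKRD1 had the largest change of the 10 genes in each of these comparisons. In U2OS WT cells it went from 173, 195 and 207 CPM in the untreated libraries to 1157, 1141 and 1227 CPM with mocetinostat, a 6.19-fold increase (log2 fold change 2.63 ± 0.09 SE, adjusted p = 1.2e-06, and 2.56 without the untreated library that stood apart). In U2OS KO cells it went from 227, 248 and 255 to 956, 917 and 877 CPM, 3.78-fold (1.92 ± 0.05, adjusted p = 4e-19). The treated libraries lay far above the untreated ones in both genotypes, and the KO libraries began higher and ended lower than the WT libraries. After recovery the increase was smaller. AID-DIvA WT cells had 116, 107 and 111 CPM untreated and 307, 261 and 257 CPM after recovery, 2.48-fold (1.31 ± 0.06, adjusted p = 4.5e-09). AID-DIvA KO cells had 219, 216 and 193 CPM untreated and 507, 458 and 457 CPM after recovery, 2.26-fold (1.18 ± 0.06, adjusted p = 9.5e-07). No treated library overlapped the untreated ones.

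CYR61 rose 2.16-fold in U2OS WT cells, from 536, 492 and 464 CPM to 1069, 1029 and 1102 CPM (log2 fold change 1.11 ± 0.08, adjusted p = 2.9e-05, and 1.17 without untreated replicate 1). In U2OS KO cells it rose from 586, 624 and 677 to 1109, 998 and 1056 CPM (0.75 ± 0.05, adjusted p = 1.3e-11). The untreated KO libraries lay above the untreated WT libraries, while the treated libraries of the genotypes overlapped. In AID-DIvA WT cells the values were 553, 536 and 599 CPM untreated and 800, 746 and 749 CPM after recovery (0.45 ± 0.05, adjusted p = 3.8e-06). In AID-DIvA KO cells they were 678, 604 and 670 CPM and then 1219, 1007 and 1017 CPM (0.73 ± 0.07, adjusted p = 5.4e-05). The groups did not overlap in any of the 4 comparisons.

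CTGF took opposite directions at the 2 stages. In AID-DIvA WT cells it fell from 279, 233 and 240 CPM to 141, 109 and 117 CPM, 2.04-fold lower (log2 fold change -1.03 ± 0.10, adjusted p = 5.6e-05). In AID-DIvA KO cells it fell from 233, 196 and 193 to 181, 159 and 157 CPM (-0.32 ± 0.08, adjusted p = 0.009), a call that was lost without KO untreated replicate 1 (adjusted p = 0.061). The decrease was thus deeper in WT cells, and treated and untreated libraries were separate in both genotypes. Before recovery, CTGF rose in U2OS KO cells from 172, 181 and 193 to 295, 272 and 280 CPM (0.64 ± 0.05, adjusted p = 5e-11). U2OS WT cells began higher and went from 318, 309 and 311 to 391, 359 and 354 CPM (0.25 ± 0.07, adjusted p = 0.024). This last call passed in 1 of the 6 fits that left out a library, that without U2OS WT untreated replicate 1 (0.26, adjusted p = 3.1e-08), and the others gave an adjusted p of up to 0.13. It was also lost with the replicate block (adjusted p = 0.054) and with no filter on low counts (0.051).

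Of the coactivators, YAP1 was called lower in all 4 comparisons, although the AID-DIvA KO call did not hold under most alternatives. WWTR1 increased in U2OS cells and was not called in AID-DIvA cells. YAP1 fell in U2OS KO cells from 67.6, 66.1 and 67.7 CPM to 37.5, 39.3 and 39.7 CPM (log2 fold change -0.78 ± 0.05, adjusted p = 7.2e-13). For U2OS WT cells the change was from 18.6, 30.8 and 28.6 to 14.9, 15.3 and 14.8 CPM (-0.78 ± 0.17, adjusted p = 0.0069). The lowest of these untreated values was that of the library that stood apart, and without it the decrease was -0.98 (adjusted p = 6.4e-21). After recovery the difference was small: 30.2, 28.9 and 29.7 against 26.3, 25.9 and 26.5 CPM in AID-DIvA WT cells (-0.17 ± 0.05, adjusted p = 0.016), and 92.2, 84.0 and 83.1 against 70.9, 75.1 and 78.5 CPM in KO cells (-0.21 ± 0.07, adjusted p = 0.047). The WT call was lost without recovery replicate 2 or untreated replicate 1 or 3 (adjusted p up to 0.071), and the KO call was lost without any 1 library other than recovery replicate 3 (up to 0.22). The KO call was also lost with the replicate block (adjusted p = 0.12), DESeq2 (0.059), DESeq2 size factors (0.053), no filter on low counts (0.053) and reverse-strand counts (0.051).

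WWTR1 moved the other way to YAP1 before recovery. In U2OS KO cells it rose from 25.5, 26.6 and 25.4 CPM to 42.6, 39.8 and 39.8 CPM (log2 fold change 0.66 ± 0.05, adjusted p = 9.3e-11). U2OS WT cells had 30.3, 32.8 and 34.6 CPM untreated and 37.2, 37.1 and 38.3 CPM treated (0.22 ± 0.07, adjusted p = 0.043), and this call was lost without untreated replicate 2 or any 1 treated replicate (up to 0.15), with no filter (0.11) and with the replicate block (0.08). Without untreated replicate 1 the difference was 0.17 (adjusted p = 0.0019). After recovery its groups overlapped in both genotypes, with values of 20.2 to 26.3 CPM over the 12 AID-DIvA libraries (adjusted p = 0.52 in WT and 0.2 in KO cells). In WT cells the difference passed the test without recovery replicate 1 (-0.18, adjusted p = 0.0047), whose 25.6 CPM was the highest of its group.

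TEAD1 and TEAD4 changed by at most 1.31-fold in the treatment comparisons. TEAD1 decreased after recovery, from 206, 196 and 214 to 181, 165 and 172 CPM in AID-DIvA WT cells (log2 fold change -0.24 ± 0.05, adjusted p = 0.00082) and from 254, 253 and 237 to 165, 192 and 208 CPM in KO cells (-0.39 ± 0.09, adjusted p = 0.0075). Before recovery it was 209, 205 and 206 CPM in untreated and 178, 193 and 187 CPM in treated U2OS KO cells (-0.14 ± 0.04, adjusted p = 0.0043), a call lost in the fit on all 4 U2OS groups (-0.15, adjusted p = 0.41). Its untreated values in U2OS WT cells were 97.6, 171 and 163 CPM and the treated ones 172, 177 and 173 CPM (0.28 ± 0.19, adjusted p = 0.26). That spread came from replicate 1, and without it the difference was 0.06 (adjusted p = 0.12). TEAD4 increased slightly in AID-DIvA WT cells, from 72.7, 72.4 and 74.1 to 81.7, 78.8 and 78.9 CPM (0.14 ± 0.04, adjusted p = 0.017), a call lost without any 1 untreated replicate (adjusted p up to 0.079), with no filter (0.058) and in the fit on all 4 AID-DIvA groups (0.15). It decreased in U2OS KO cells, from 99.9, 97.5 and 97.9 to 84.9, 72.5 and 79.0 CPM (-0.31 ± 0.05, adjusted p = 9.8e-06). The U2OS WT difference of TEAD4 was -0.15 ± 0.07 (adjusted p = 0.087), and without untreated replicate 1 it was -0.17 (adjusted p = 0.00014). It also passed with DESeq2 (adjusted p = 0.033) and in the fit on all 4 U2OS groups (0.038). That in AID-DIvA KO cells was 0.19 ± 0.08 (adjusted p = 0.1), and it passed without untreated replicate 3 (0.27, adjusted p = 0.02) and in the fit on all 4 AID-DIvA groups (adjusted p = 0.034).

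The inhibitors gave no common direction. AMOTL1 decreased after recovery, from 64.0, 62.3 and 63.0 to 49.1, 57.8 and 54.5 CPM in AID-DIvA WT cells (log2 fold change -0.22 ± 0.06, adjusted p = 0.0066) and from 119, 119 and 121 to 108, 98.1 and 98.7 CPM in KO cells (-0.23 ± 0.06, adjusted p = 0.0096). The KO call was lost without recovery replicate 2 or 3 or untreated replicate 1 (adjusted p up to 0.057). Before recovery AMOTL1 was higher with treatment: 46.2, 71.5 and 67.2 against 85.9, 89.7 and 83.5 CPM in U2OS WT cells (0.50 ± 0.15, adjusted p = 0.028) and 111, 115 and 112 against 121, 124 and 127 CPM in KO cells (0.14 ± 0.04, adjusted p = 0.0063). The KO call was lost in the fit on all 4 U2OS groups (0.14, adjusted p = 0.33). The WT difference was 0.32 without untreated replicate 1 (adjusted p = 1.2e-09), and the call was lost without any 1 treated replicate (up to 0.094). AMOTL2 rose in AID-DIvA WT cells, from 162, 148 and 150 to 181, 182 and 182 CPM (0.26 ± 0.04, adjusted p = 0.00035), and fell in U2OS KO cells, from 225, 218 and 221 to 187, 166 and 175 CPM (-0.32 ± 0.05, adjusted p = 1.7e-06). In the other comparisons its differences were 0.15 ± 0.07 (AID-DIvA KO, adjusted p = 0.12) and 0.19 ± 0.08 (U2OS WT, adjusted p = 0.081). The latter passed at 0.12 without untreated replicate 1 (adjusted p = 0.002) and in the fit on all 4 U2OS groups (adjusted p = 0.027). LATS2 decreased in U2OS KO cells, from 45.1, 46.9 and 43.2 to 38.6, 37.01 and 40.02 CPM (-0.22 ± 0.05, adjusted p = 0.00057). Its other 3 treatment differences lay between -0.06 and 0.10 and were not called. Without U2OS WT untreated replicate 1 the U2OS WT difference of LATS2 was -0.11 (adjusted p = 0.046), and without recovery replicate 1 its AID-DIvA WT difference was 0.12 (adjusted p = 0.013).

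**Figure D2:**
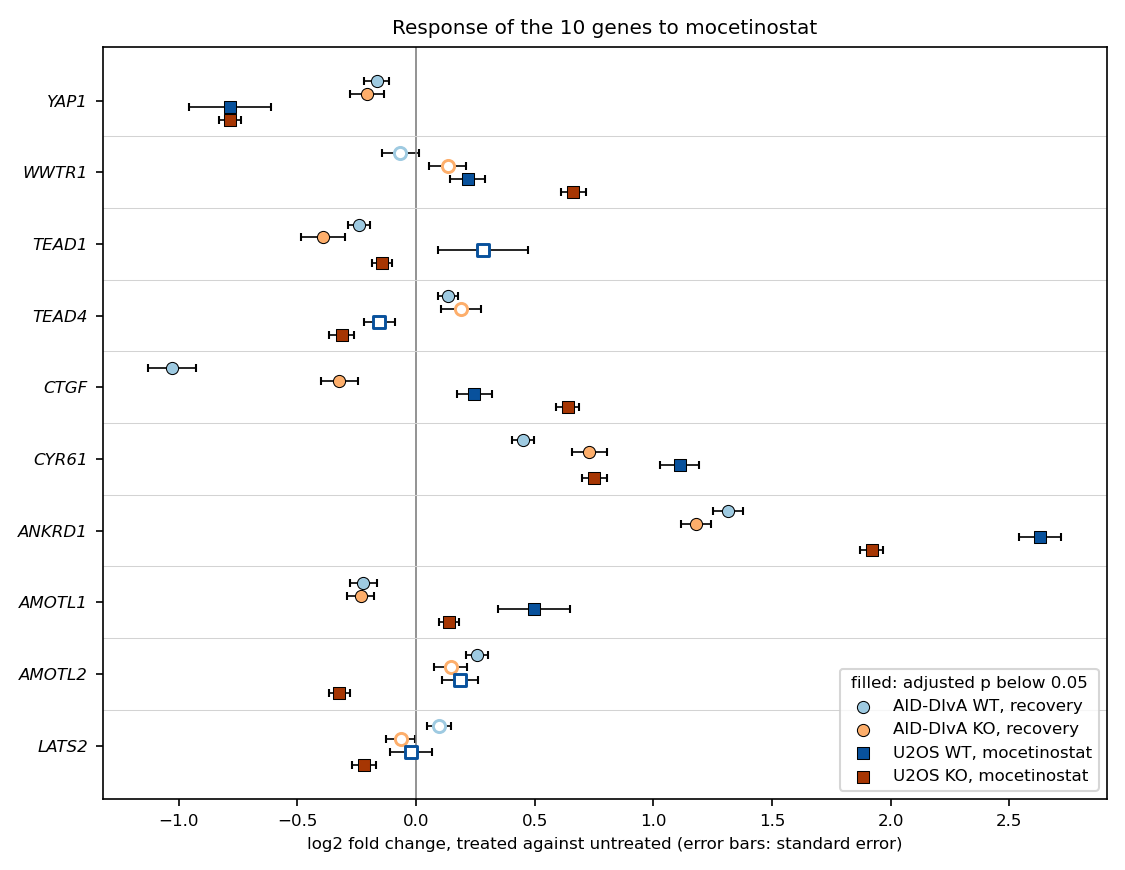
Log2 fold change of each gene, treated against untreated (x axis), in the 4 treatment comparisons, with bars of 1 standard error. Filled symbols have an adjusted p below 0.05. ANKRD1 and CYR61 lie above 0 in all 4 comparisons, YAP1 lies below 0 in all 4, and CTGF lies below 0 after recovery and above 0 before it.

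Counted at an adjusted p below 0.05, 4 of the 10 members were higher and 4 lower in AID-DIvA WT cells after recovery, where 23.9% of all genes tested were called higher and 23% lower. In AID-DIvA KO cells 2 were higher and 4 lower, against 20.2% and 19.9% of all genes. In U2OS WT cells 5 were higher and 1 lower, against 26% and 22.9%. In U2OS KO cells 5 were higher and 5 lower, against 35.8% and 34%, and 1 fewer in each direction in the fit on all 4 U2OS groups, without AMOTL1 and TEAD1. That fit called 12921 of 22647 genes, against 14794 of 21176 in the fit on U2OS KO libraries alone. The median log2 fold change of the members was 0.02, 0.03, 0.23 and 0.00 in that order, with all genes at 0.00, -0.02, 0.01 and 0.00. The number called in AID-DIvA KO cells fell from 6 to 3 without KO untreated replicate 1, where 5833 of 20651 genes were called against 8156 of 20362 with it. In U2OS WT cells the members called fell from 6 to 3 without any 1 treated replicate, where 8057 to 8225 genes were called. They rose to 9, with 6 higher and 3 lower, without untreated replicate 1. There 14888 genes of 22423 were called, against 10653 of 21797 with all libraries.

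Few members changed by more than 1 on the log2 scale. Above this size and called higher were 1 in AID-DIvA WT and 1 in AID-DIvA KO cells (ANKRD1 in both), against 4.86% and 4.9% of all genes, 2 in U2OS WT cells (ANKRD1 and CYR61), against 13.6%, and 1 in U2OS KO cells (ANKRD1), against 14.6%. Called lower by more than 1 was CTGF in AID-DIvA WT cells, where 2.52% of all genes were, and no member in the other comparisons, where 2.56%, 5.06% and 5.77% of all genes were.

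The untreated cells were compared next, since each response starts from them. KO cells had more RNA of most members than WT cells of the same line. Called higher were 8 members in AID-DIvA and 6 in U2OS, against 18.6% and 6.56% of all genes. Called lower were 1 (CTGF) and 2 (CTGF and WWTR1), against 18.1% and 8.63%. The median KO against WT difference of the members was 0.36 on the log2 scale in AID-DIvA and 0.43 in U2OS, with all genes at 0.00 and -0.01.

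YAP1 had the largest of the members' differences in both lines. Its untreated levels, given above, were 28.9 to 30.2 CPM in WT and 83.1 to 92.2 CPM in KO AID-DIvA libraries, 2.87-fold higher (log2 difference 1.52 ± 0.05, adjusted p = 3.5e-12). In U2OS they were 18.6 to 30.8 and 66.1 to 67.7 CPM, 2.58-fold higher (1.37 ± 0.17, adjusted p = 0.0023), and 1.17 without WT replicate 1 (adjusted p = 3.5e-23). AMOTL1 was 0.90 ± 0.04 higher in AID-DIvA (adjusted p = 2.4e-10) and 0.87 ± 0.15 in U2OS (adjusted p = 0.0093). That U2OS call was lost without KO replicate 2, at an adjusted p of 0.05 after rounding, and the difference was 0.70 without WT replicate 1. The KO libraries of YAP1 and AMOTL1 lay above all WT libraries in both lines.

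ANKRD1 was 0.89 ± 0.05 higher in AID-DIvA (adjusted p = 1.4e-09), close to AMOTL1, and AMOTL2 and TEAD4 were higher in both lines. AMOTL2 was 0.44 ± 0.05 higher in AID-DIvA (adjusted p = 9.5e-06) and 0.54 ± 0.08 in U2OS (adjusted p = 0.0043), and TEAD4 was 0.39 ± 0.06 (adjusted p = 0.00016) and 0.51 ± 0.07 higher (adjusted p = 0.0023). In U2OS the ANKRD1 difference was 0.34 ± 0.09 (adjusted p = 0.042). TEAD1 was 0.25 ± 0.04 higher in AID-DIvA (adjusted p = 0.00032) and LATS2 0.33 ± 0.05 (adjusted p = 4e-05). In U2OS, TEAD1 was at 0.52 ± 0.19 (adjusted p = 0.12) and LATS2 at 0.31 ± 0.09 (adjusted p = 0.061). Without WT replicate 1 both were called, at 0.30 (adjusted p = 2.4e-09) and 0.23 (adjusted p = 6.7e-05), as they were with DESeq2 (0.042 and 0.022) and in the fit on all 4 U2OS groups (0.017 and 0.0052). Without that library AMOTL2 was at 0.48, TEAD4 at 0.50 and ANKRD1 at 0.28.

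CTGF was the member that was lower in KO cells of both lines, by -0.30 ± 0.08 in AID-DIvA (adjusted p = 0.0087) and -0.78 ± 0.07 in U2OS (adjusted p = 0.00056). The AID-DIvA call was lost without KO replicate 2 or 3 (adjusted p up to 0.23). WWTR1 was lower in U2OS KO cells by -0.33 ± 0.08 (adjusted p = 0.024) and near 0 in AID-DIvA (-0.01 ± 0.06, adjusted p = 0.9). CYR61 was 0.19 ± 0.05 higher in AID-DIvA (adjusted p = 0.011), a call lost without WT replicate 1 or 2 or KO replicate 1 (up to 0.081), and 0.34 ± 0.09 higher in U2OS (adjusted p = 0.042). In U2OS the calls of CYR61, ANKRD1 and WWTR1 each passed in 1 of the 6 fits that left out a library, that without WT replicate 1, and the members called numbered between 4 and 10 over these 6 fits. The calls of WWTR1, CYR61 and ANKRD1 were also lost with the replicate block (adjusted p = 0.063, 0.11 and 0.052), and that of WWTR1 with reverse-strand counts (0.076). All 10 were called without WT replicate 1, with CTGF at -0.77, WWTR1 at -0.38 and CYR61 at 0.40, where 8627 of 20973 genes were called, against 3132 of 20621 with it. The lowest number was without KO replicate 2, where 1266 of 21035 genes were called. The members called were 5 without WT replicate 2 or 3 or KO replicate 1 or 3, where 1286 to 2231 genes were called.

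YAP1 lies on chromosome 11 (GRCh37, chr11:101981192-102104154, plus strand), and the genes around it were also higher in untreated KO cells. Within 5 Mb of its start there were 30 other tested genes. Their median KO against WT difference was 1.38 on the log2 scale in AID-DIvA, with 25 called higher and 1 lower. In U2OS it was 1.04, with 14 higher and 1 lower, and also 1.04 without WT untreated replicate 1. Over all genes, 18.6% and 18.1% were called higher and lower in AID-DIvA, and 6.56% and 8.63% in U2OS. The difference of YAP1 itself, 1.52 and 1.37, was thus near that of its neighbours. In steps of 5 Mb along the chromosome, the medians were 1.38, 1.39, 1.19 and 1.42 from 5 Mb before to 15 Mb after the start of YAP1 in AID-DIvA, and 1.08, 1.04, 0.99 and 1.28 in U2OS. In the next 5 Mb they were -0.01 and 0.00. These genes were examined after the values had been seen, so that the medians are a description. No DNA measurement of these cells was analysed here.

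AMOTL1 lies on the same arm (chr11:94439597-94609918, plus strand), and its 41 tested neighbours in AID-DIvA had a median of 0.49, against 0.90 for AMOTL1 itself. In U2OS 40 neighbours had a median of 0.49, against 0.87 for AMOTL1. From 35 Mb to 5 Mb before YAP1 the medians per 5 Mb were 0.26 to 0.52 in AID-DIvA and 0.17 to 0.63 in U2OS, the highest of which rested on 10 genes. Around TEAD4, on chromosome 12, 125 genes had medians of 0.26 and 0.16, against 0.39 and 0.51 for TEAD4. Around the other 7 members the medians lay between -0.17 and 0.13 in the 2 lines, among them 0.06 and 0.13 around ANKRD1 and 0.05 and 0.08 around AMOTL2, below the differences of these genes themselves.

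**Figure D3:**
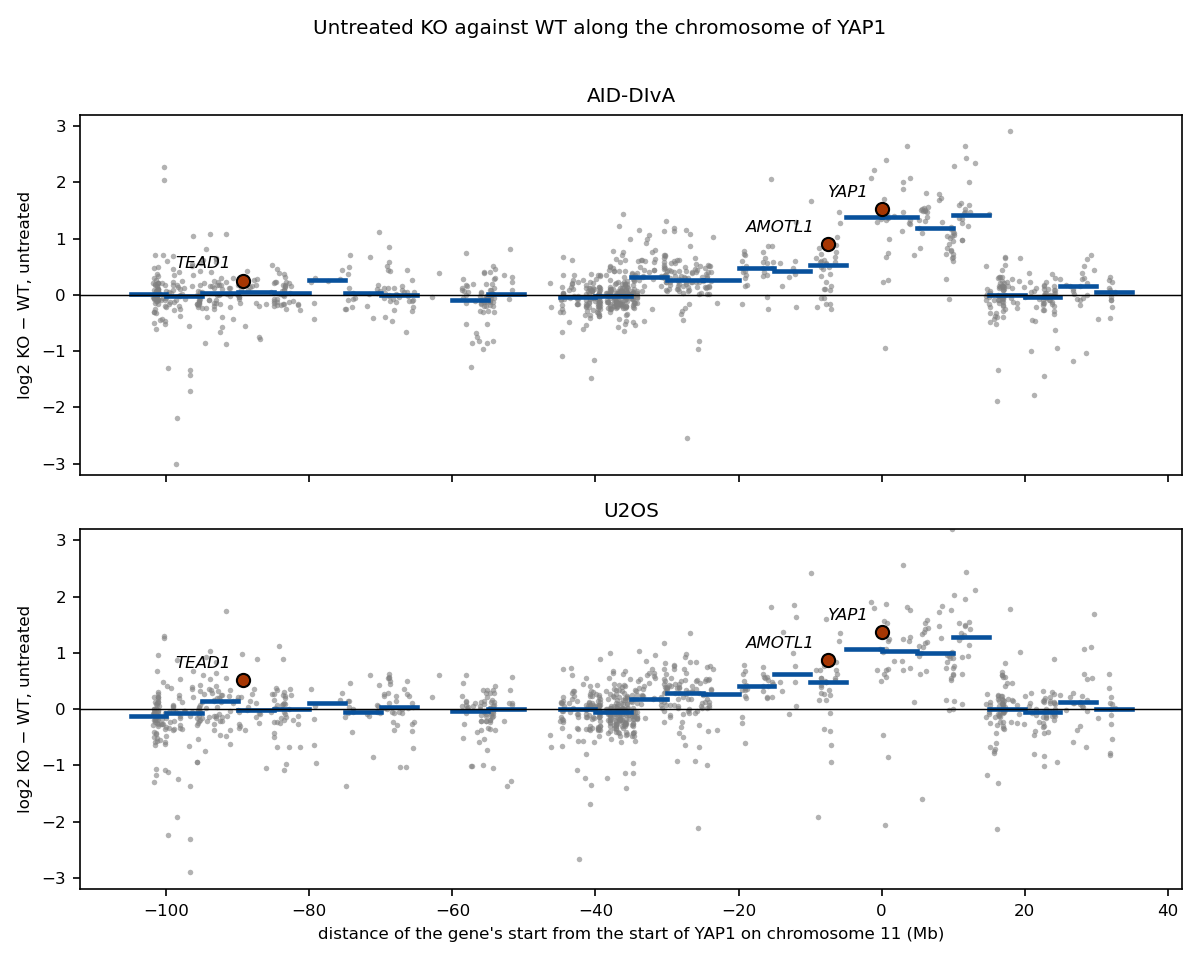
Log2 difference between untreated KO and WT cells (y axis) of each tested gene on chromosome 11, by the distance of its start from the start of YAP1 (x axis, Mb), in AID-DIvA (1106 genes) and U2OS (1111 genes). Blue lines are medians per 5 Mb with at least 5 genes, and red points are members. Genes beyond the y axis, 7 and 6, are not drawn. The medians lie near 1 or above from 5 Mb before to 15 Mb after YAP1 and near 0 in the next 5 Mb.

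Whether the response differed between genotypes was tested with the genotype by treatment interaction over the 12 libraries of a line. In AID-DIvA 1 member was called with a higher response in KO cells, against 0.762% of all genes, and none with a lower one, against 0.451%, nor was any lower at an unadjusted p below 0.05 by edgeR or called lower by DESeq2. That member was CTGF, whose decrease was smaller in KO cells by 0.71 ± 0.13 on the log2 scale (adjusted p = 0.016). The call was lost without KO untreated replicate 2 or 3 (adjusted p = 0.069 and 0.058), which leaves 0 members called. In these fits 138 of 21666 and 271 of 21703 genes were called, against 258 of 21265 with all libraries. The next in order was CYR61, with 0.28 ± 0.09 (adjusted p = 0.18), which passed with no filter on low counts (adjusted p = 0.011).

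In U2OS 2 members were called with a higher response in KO cells, against 1.1% of all genes, and 2 with a lower one, against 1.06%. WWTR1 and CTGF rose more in KO cells, by 0.45 ± 0.09 (adjusted p = 0.014) and 0.40 ± 0.09 (adjusted p = 0.035). ANKRD1 rose less, by -0.71 ± 0.10 (adjusted p = 0.0017), and AMOTL2 differed by -0.51 ± 0.09 (adjusted p = 0.009), with its decrease in KO cells beside 0.19 in WT cells. Without WT untreated replicate 1 there were 7 members called, with CYR61 at -0.42 (adjusted p = 4.2e-05), TEAD1 at -0.21 (adjusted p = 0.014) and AMOTL1 at -0.19 (adjusted p = 0.049) added, and 2091 of 23164 genes were called against 488 of 22647. Only 2 were called without WT treated replicate 2 or KO untreated replicate 1, where 281 of 23325 and 257 of 23463 genes were called. The WWTR1 call was lost without WT treated replicate 1 or 2 or KO untreated replicate 1 or 3 (adjusted p up to 0.057), and that of CTGF in 8 of the 12 fits (up to 0.12). The WWTR1 call was also lost with reverse-strand counts (0.34, adjusted p = 0.12) and the CTGF call with the replicate block (adjusted p = 0.052). Without WT untreated replicate 1 these interactions were 0.49 for WWTR1, 0.38 for CTGF, -0.64 for ANKRD1 and -0.44 for AMOTL2, all called. YAP1 had an interaction of 0.00 ± 0.18 with that library and 0.20 without it (adjusted p = 0.079).

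The response after recovery in AID-DIvA was then set against that before recovery in U2OS, as the difference of the log2 fold changes over 12 libraries of a genotype. In WT cells 2 members were called with a higher response after recovery and 5 with a lower one, against 20.5% and 21.7% of all genes. In KO cells these were 3 and 5, against 24.8% and 27.7%. CTGF and ANKRD1 had the largest differences in both genotypes. For CTGF they were -1.28 ± 0.13 in WT (adjusted p = 5e-06) and -0.97 ± 0.10 in KO cells (adjusted p = 2.9e-07), from an increase before recovery to a decrease after it. For ANKRD1 they were -1.32 ± 0.11 (adjusted p = 1e-06) and -0.75 ± 0.09 (adjusted p = 1.3e-06).

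AMOTL1 had the same pattern of sign, with -0.73 ± 0.17 in WT (adjusted p = 0.0035) and -0.38 ± 0.07 in KO cells (adjusted p = 0.00029). YAP1 was less decreased after recovery, by 0.61 ± 0.18 (adjusted p = 0.016) and 0.57 ± 0.08 (adjusted p = 1.2e-05), and TEAD4 differed by 0.28 ± 0.08 (adjusted p = 0.0078) and 0.50 ± 0.11 (adjusted p = 0.00066). The WT call of TEAD4 was lost with no filter on low counts (adjusted p = 0.11). CYR61 differed in WT cells (-0.67 ± 0.10, adjusted p = 0.00012), and in KO cells its value was -0.03 ± 0.10 (adjusted p = 0.86). AMOTL2 differed in KO cells (0.46 ± 0.09, adjusted p = 0.00028), and so did WWTR1 (-0.54 ± 0.09, adjusted p = 9.7e-05). In WT cells WWTR1 was at -0.29 ± 0.12 (adjusted p = 0.063) and passed without AID-DIvA recovery replicate 1 (adjusted p = 0.004) or U2OS untreated replicate 1 or 3 (adjusted p = 0.041 and 0.049), and with reverse-strand counts (0.028). TEAD1 was called at -0.53 ± 0.20 (adjusted p = 0.049) and -0.26 ± 0.10 (adjusted p = 0.03), and each of these calls was lost in 9 of the 12 fits that left out a library (adjusted p up to 0.11 and 0.1). The WT call of TEAD1 was also lost with the replicate block and with reverse-strand counts (adjusted p = 0.053 in both). LATS2 was not called (0.11 ± 0.10 and 0.15 ± 0.08), other than in WT cells without U2OS untreated replicate 1 (0.19, adjusted p = 0.022). Without that library 9 members were called in WT cells, with TEAD1 at -0.31 (adjusted p = 0.00015), YAP1 at 0.80, AMOTL1 at -0.56, TEAD4 at 0.30, CYR61 at -0.73, CTGF at -1.29 and ANKRD1 at -1.26. That fit called 11829 of 22758 genes, against 9377 of 22238 with all libraries.

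Other targets of a conserved YAP/TEAD signature, a list of 17 genes, moved with the members only in part. In U2OS KO cells 10 of the 16 tested were lower and 5 higher, against 34% and 35.8% of all genes. Their median log2 fold change was -0.62. Among U2OS WT cells 8 of 15 were lower and 5 higher, against 22.9% and 26%, with a median of -0.30. Without untreated replicate 1 these were 9, 5 and -0.42, against 32.5% and 33.9% of all genes. After recovery 9 and 4 of 16 were lower and higher in AID-DIvA WT cells, against 23% and 23.9% (median -0.32). In AID-DIvA KO cells these were 7 and 4, against 19.9% and 20.2% (median -0.17). In each of these comparisons more of the listed targets were thus called lower than higher, while all genes had a median near 0. NT5E was not tested, nor was IGFBP3 in U2OS WT cells. In untreated cells 7 of 16 listed targets were higher and 2 lower in AID-DIvA KO than in WT cells, against 18.6% and 18.1% of all genes. In U2OS 6 of 16 were higher and 0 lower, against 6.56% and 8.63%. Without U2OS WT replicate 1 these were 10 and 1, against 20.5% and 20.6% of all genes.

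The receptor tyrosine kinase AXL fell in U2OS, by -1.30 ± 0.07 in WT (adjusted p = 4.9e-06) and -1.46 ± 0.05 in KO cells (adjusted p = 1.6e-17). So did RBMS3, which encodes an RNA-binding protein (-1.18 ± 0.13, adjusted p = 0.00022, and -2.04 ± 0.08, adjusted p = 1.4e-16), ARHGEF17, a guanine nucleotide exchange factor (-1.04 ± 0.09, adjusted p = 8.1e-05, and -1.60 ± 0.05, adjusted p = 5.7e-18), and FJX1, a homologue of the Drosophila gene four-jointed (-1.18 ± 0.12, adjusted p = 0.00015, and -1.33 ± 0.06, adjusted p = 3.1e-15). After recovery CCDC80, an extracellular matrix protein, was the gene past a log2 change of 1 in both genotypes with a mean of at least 1 CPM, at -1.07 ± 0.05 (adjusted p = 2.1e-09) and -1.22 ± 0.06 (adjusted p = 6.1e-07). Its group means also fell before recovery, from 135 to 68.4 CPM in U2OS WT and from 149 to 68.2 CPM in KO cells. AXL, RBMS3 and ARHGEF17 had lower means after recovery too. Those of FJX1 were higher, 61.6 against 41.3 CPM in AID-DIvA WT and 75.9 against 56.8 CPM in KO cells. Without U2OS WT untreated replicate 1 the U2OS WT values of AXL, RBMS3, ARHGEF17 and FJX1 lay between -1.30 and -1.05.

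The 5 listed targets called higher in U2OS were the same in both genotypes and did not meet the size rule for naming, so that they were chosen after their values were seen. GADD45A, a stress response gene, rose by 1.02 ± 0.11 in WT (adjusted p = 0.00024) and 0.80 ± 0.06 in KO cells (adjusted p = 2.5e-11), and NUAK2, a kinase, by 0.99 ± 0.09 (adjusted p = 6.5e-05) and 0.73 ± 0.08 (adjusted p = 5.2e-08). F3, which encodes tissue factor, rose by 0.69 ± 0.10 (adjusted p = 0.00072) and 0.89 ± 0.08 (adjusted p = 1.4e-09). ASAP1 and DOCK5 rose by 0.74 ± 0.18 (adjusted p = 0.011) and 0.65 ± 0.15 (adjusted p = 0.0093) in WT cells, and by 0.56 ± 0.04 and 0.23 ± 0.05 in KO cells (adjusted p = 1.1e-10 and 9.5e-05). Without U2OS WT untreated replicate 1 all 5 were called higher in WT cells, ASAP1 at 0.53 and DOCK5 at 0.48. GADD45A and NUAK2 were also higher after recovery, at 1.02 ± 0.08 (adjusted p = 1.9e-06) and 0.65 ± 0.09 (adjusted p = 3.9e-05) in AID-DIvA WT cells and at 0.92 ± 0.07 (adjusted p = 1e-05) and 1.11 ± 0.09 (adjusted p = 8.4e-06) in KO cells. The listed targets thus included genes that rose, as ANKRD1 and CYR61 did, beside those that fell.

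Of 22 Hippo regulators and TEAD partners 21 were tested, all but VGLL1. In U2OS WT cells 9 were higher and 6 lower, against the 26% and 22.9% of all genes given above, and without untreated replicate 1 these were 10 and 10, against 33.9% and 32.5%. In U2OS KO cells 9 were higher and 11 lower, against 35.8% and 34%. After recovery 3 were higher and 7 lower in WT cells, against 23.9% and 23%, and 4 and 5 in KO cells, against 20.2% and 19.9%. Their medians lay between -0.14 and -0.02. VGLL3, a TEAD-binding cofactor, rose in U2OS by 1.62 ± 0.21 in WT (adjusted p = 0.00056) and 1.76 ± 0.07 in KO cells (adjusted p = 3.6e-16). TAOK3, a kinase that can activate the Hippo kinases, rose by 1.53 ± 0.14 (adjusted p = 7.6e-05) and 1.52 ± 0.06 (adjusted p = 3e-16). TEAD2, another TEAD family member, fell by 1.07 ± 0.08 (adjusted p = 4e-05) and 1.06 ± 0.05 (adjusted p = 2.7e-14) on the log2 scale. Without U2OS WT untreated replicate 1 the WT values were 1.37 for VGLL3, 1.39 for TAOK3 and -1.08 for TEAD2. No gene of this list passed a log2 change of 1 in either genotype after recovery.

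**Figure D4:**
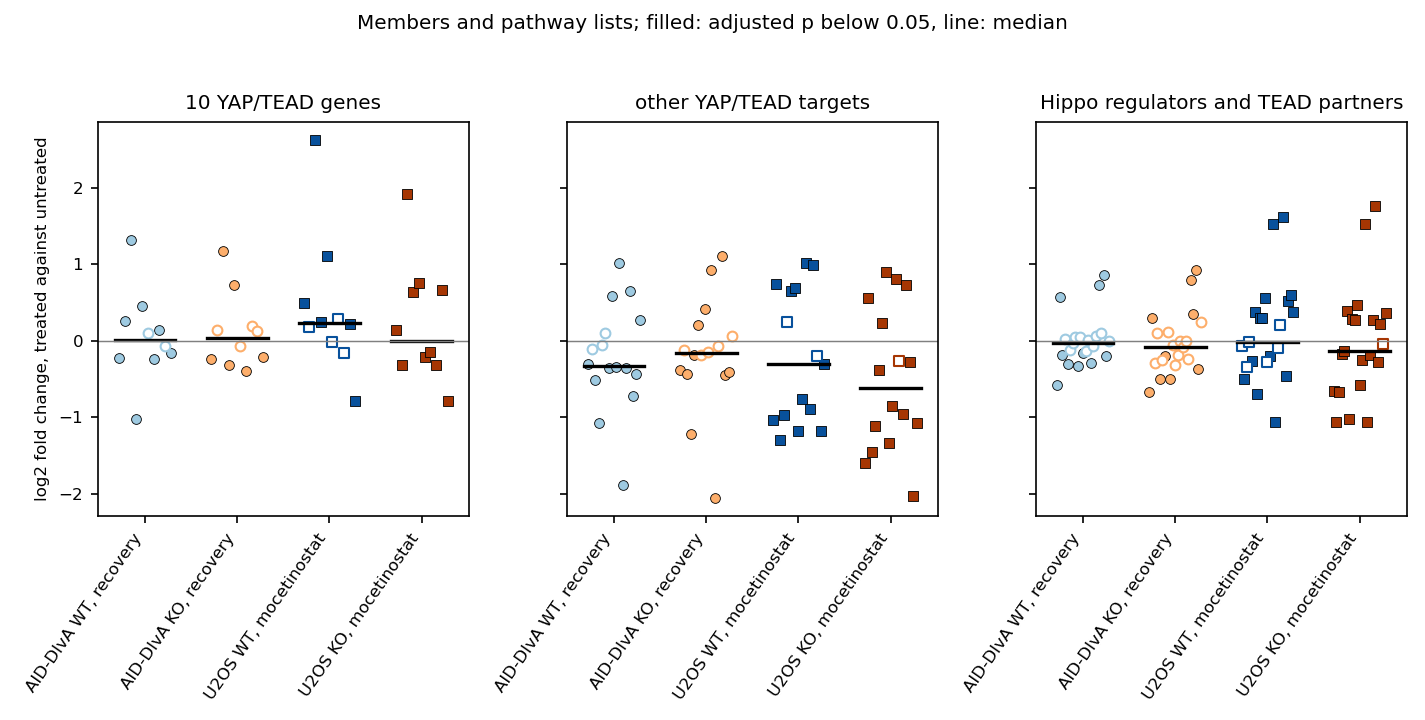
Log2 fold change, treated against untreated (y axis), of the 10 members, of the other listed targets and of the Hippo regulators and TEAD partners in the 4 treatment comparisons (x axis). Each point is a gene, filled where the adjusted p is below 0.05, and lines are medians. The medians of the other targets lie at -0.32, -0.17, -0.30 and -0.62 from left to right.

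Across the 24 libraries the targets did not follow a single pattern. Pearson's r of log2 CPM was 0.88 between CYR61 and ANKRD1, 0.32 between CTGF and ANKRD1 and 0.03 between CTGF and CYR61. The points share their groups, and r is a description. Among 15593 genes with a mean of at least 1 CPM, those most like ANKRD1 were NMNAT2 (r = 0.980) and PRKCH (0.974). Those most like CYR61 were RP11-43F13.3 (0.965), HOMER2 (0.958) and KRT86 (0.957). CTGF was most like CDC42EP3 (0.947), PMP22 (0.945) and KIAA1211L (0.934).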

How the data were processed

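Total RNA libraries prepared with a stranded kit were sequenced in pairs by the authors, aligned to hg19/GRCh37 with STAR and counted per gene with featureCounts (versions not given in the sources used here). The deposited values are raw counts per gene, per library and without pooling. The counts from either strand were used, and the deposited reverse-strand counts were an alternative. Exonic length, deposited with the counts, gave CPM per kilobase. Groups came from the labels, those of AID-DIvA from the titles. The members and gene lists were chosen with earlier results of these data known.

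Tests were run with edgeR 4.0.16 under R 4.3.3, with TMM factors, filterByExpr, the robust quasi-likelihood F test and Benjamini-Hochberg adjustment over all genes tested, with calls where the adjusted p was below 0.05. The 4 treatment comparisons and the 2 comparisons of untreated KO and WT cells used 6 libraries each, and interactions and stage differences 12. Standard errors were derived as |log2 fold change| over the root of F. Comparisons that use the same untreated libraries are not independent. DESeq2 1.42.0, its size factors, no filter, a fit on all 4 groups of a line, the replicate number as a block and leaving out each library were alternatives. Replicates of every group differed beyond sampling noise (chi-square per gene at least 2.79). The SD values follow the spread between 3 replicates. The standard errors also draw on the spread of all genes tested, through the fit.

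All members were named. From each other list up to 4 genes per line were named, those with the largest mean change among genes called beyond 1 on the log2 scale in the same direction in both genotypes, with a mean of at least 1 CPM. The 3 genes with the highest r were named for CTGF, CYR61 and ANKRD1, with a pseudocount of 0.5 CPM, of which 1 for ANKRD1 is not reported here. The steps were tested on simulated data: of 200 genes given a log2 change of 1, the AID-DIvA WT comparison (20289 genes) recovered 85% and the U2OS interaction (22647 genes) 62%, and 9.57% and 3.88% of the calls were false. The lowest recovery of the 10 comparisons was that of the WT stage difference (22238 genes), at 54%. Promoter windows and motifs were read from RefSeq, build GRCh38.p14, and were not set against coordinates of the files.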

Additional observations from a re-analysis of the deposited data

Results flagged for a closer look

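The values here are differences between responses that passed edgeR's quasi-likelihood test at an adjusted p below 0.05. They are given as log2 differences without an explanation. The response to mocetinostat differed between KO and WT cells for CTGF in AID-DIvA (0.71) and for WWTR1 (0.45), CTGF (0.40), ANKRD1 (-0.71) and AMOTL2 (-0.51) in U2OS, each given as KO minus WT. Of the 12 fits that left out a library, the call was lost in 2 for CTGF in AID-DIvA. In U2OS it was lost in 8 for CTGF, 4 for WWTR1 and 0 for ANKRD1 and AMOTL2.

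The response after recovery in AID-DIvA differed from that before recovery in U2OS in WT cells for YAP1 (0.61), TEAD1 (-0.53), TEAD4 (0.28), CTGF (-1.28), CYR61 (-0.67), ANKRD1 (-1.32) and AMOTL1 (-0.73). In KO cells it differed for YAP1 (0.57), WWTR1 (-0.54), TEAD1 (-0.26), TEAD4 (0.50), CTGF (-0.97), ANKRD1 (-0.75), AMOTL1 (-0.38) and AMOTL2 (0.46). These 6 names in both lists (YAP1, TEAD1, TEAD4, CTGF, ANKRD1, AMOTL1) had the same sign in WT and KO cells. Cell line label and stage cannot be told apart in these values. The TEAD1 call of each genotype was lost in 9 of the 12 fits that left out a library.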

How the results depend on the processing

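Each member had a mean above 10 CPM, and what depth limits was not tested. With no filter on low counts, the interaction in AID-DIvA had 2 members called, CTGF and CYR61. Same-numbered libraries did not deviate together in every pair. With 3 libraries in a group this cannot show whether they were paired, and the labels do not say so. Every library correlated best with its own number in 1 of 6 comparisons, U2OS KO, which is a hint from the data and not from the design. With the replicate block 5 members were called in untreated U2OS KO against WT cells, where 8 were without it. Over all genes 2243 of 20621 were called with the block and 3132 without it. When 1 library was left out, the members called ranged from 3 to 6 in AID-DIvA KO, from 3 to 9 in U2OS WT, from 4 to 10 in untreated U2OS KO against WT, from 0 to 1 in the AID-DIvA interaction and from 2 to 7 in the U2OS interaction. Over all genes, 5833 to 8585 were called in AID-DIvA KO and 8057 to 14888 in U2OS WT, and the ranges of the others are given below. The cause was not tested.

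The values that changed sign were near 0 and not called in the edgeR fits on all libraries, and no reversed value was called. LATS2 in U2OS WT was called at -0.106, its sign unchanged, by edgeR without untreated replicate 1 (adjusted p = 0.046). The AID-DIvA interaction of AMOTL1 (-0.01) was 0.0042 with DESeq2, 0.00419 with its size factors, 0.0143 with no filter and 0.0132 with reverse-strand counts. The U2OS interaction of YAP1 was -0.0143 with the replicate block, and the stage difference of CYR61 in KO cells was 0.00649 with no filter. With 1 library left out, the values ranged from -0.106 to 0.0374 for LATS2 in U2OS WT, from -0.0771 to 0.0303 for WWTR1 in untreated AID-DIvA KO against WT, from -0.0612 to 0.0168 for YAP1, -0.00501 to 0.148 for TEAD4 and -0.0691 to 0.0537 for AMOTL1 in the AID-DIvA interaction, from -0.138 to 0.198 for YAP1 in the U2OS interaction and from -0.105 to 0.0408 for CYR61 in the KO stage difference.

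The median difference of the genes around YAP1, a value added after seeing the data, was 0.885 with reverse-strand counts and 1.14 in a fit on all 4 groups in U2OS, and between 1.35 and 1.46 under every alternative in AID-DIvA. Other scalings left the median of all genes within 0.1 of the values given. Over all genes, the AID-DIvA interaction called 258 genes, 466 with DESeq2, 613 with no filter, 157 with the replicate block and 122 to 297 with 1 library left out. The U2OS interaction called 488, 917 with DESeq2, 775 with no filter and 257 to 2091 with 1 library left out. Untreated U2OS KO against WT called 3132, 5658 in a fit on all 4 groups and 1266 to 8627 with 1 library left out.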
